A study of Mus musculus with 10 samples.

Results

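Striatal projection neurons, the medium spiny neurons that carry the output of the striatum, are built and maintained by a small set of transcription factors, and 10 of their genes are described here: Sp8, Sp9, Six3, Foxp1, Foxp2, Foxp4, Bcl11a, Bcl11b, Zfp503 and Meis2. They were taken by symbol out of the 32531 genes listed in each count table. The libraries come from adult mice that carry Drd2-EGFP/Rpl10a (the Drd2-TRAP line, CP101), with the whole striatum as the tissue, and whose D2 receptor cells carry ribosomal protein L10a tagged with EGFP. The mice self-administered either saline or cocaine intravenously in a short access schedule. Tagged polysomes were immunopurified (IP) with antibodies to EGFP and their RNA was sequenced. The saline group has 3 IP libraries (numbered 1, 2 and 4) and 1 library of total RNA (input), and the cocaine group has 5 IP libraries (numbered 1 to 5) and 1 library of the RNA left behind by the capture (unbound). All 10 libraries come from the same transgenic line, so the Drd2 promoter defines the captured cells. In the striatum that promoter is used mainly by projection neurons of the indirect pathway, and also by cholinergic interneurons. Nothing in the labels ties a library to an animal of its own, and the p-values therefore speak of the spread between these libraries, which may be technical.

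Projection neurons fall into a direct-pathway type, with the dopamine D1 receptor, and an indirect-pathway type, with the D2 receptor. In the mouse embryo the zinc finger factors Sp8 and Sp9 act in precursors and young neurons of the indirect pathway, where they promote the homeobox gene Six3, and loss of Sp9 or Six3 costs the striatum many of its D2 receptor neurons. Foxp1, Bcl11b (Ctip2) and Meis2 mark projection neurons of both types, whereas Foxp2 and Zfp503 (Nolz1) are described as leaning to the direct pathway. Sp8, Sp9 and Six3 are therefore set here, as indirect-pathway factors, against the other 7 as shared factors.

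Promoters of the pair of indirect-pathway genes with substantial reads, Sp9 and Six3, picked with their capture ratios known, are shown as background. Both come from RefSeq on GRCm38.p6, run from 250 bases before to 50 bases after the start that RefSeq gives, and read along the plus strand at chr2:73271676-73271975 and chr17:85620584-85620883. Capitals mark the GC box GGGCGG, the kind of element that Sp family proteins bind, and the CCAAT box, each searched on both strands and so also as CCGCCC and ATTGG.
Sp9: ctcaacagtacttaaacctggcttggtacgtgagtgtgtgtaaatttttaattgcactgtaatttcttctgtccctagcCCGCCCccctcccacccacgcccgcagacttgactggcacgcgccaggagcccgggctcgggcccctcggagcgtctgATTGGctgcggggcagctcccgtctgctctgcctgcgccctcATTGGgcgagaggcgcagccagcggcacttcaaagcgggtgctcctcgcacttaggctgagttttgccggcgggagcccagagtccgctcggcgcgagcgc
Six3: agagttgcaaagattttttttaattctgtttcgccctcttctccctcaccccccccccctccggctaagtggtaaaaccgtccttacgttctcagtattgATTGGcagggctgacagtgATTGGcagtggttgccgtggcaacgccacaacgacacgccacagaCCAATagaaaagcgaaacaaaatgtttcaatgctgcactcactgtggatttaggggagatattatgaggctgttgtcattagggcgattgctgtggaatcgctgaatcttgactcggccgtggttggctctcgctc
The Six3 window lies inside the GENCODE gene model, which begins further upstream, at 85613608, with another transcript. The Sp9 promoter held 1 GC box (first base at -171 from the start) and 2 CCAAT boxes (at -93 and -51). In the Six3 promoter 3 CCAAT boxes were found (at -150, -131 and -86) and no GC box. None of these matches overlapped another, and these were 2 of 6 motifs searched. Among all 32851 promoters of this length, 35.7% held a GC box and 37.4% a CCAAT box. The Sp9 window was also richer in G and C, at 63.7%, than the Six3 window, at 50.0%, with a median of 52.7% over all promoters. Promoters could be matched for 9 of the 10 genes, Foxp2 being the other one. Of the 13 start sites of the matched genes, 6 had a GC box, and these belonged to Sp8, Sp9, Foxp1, Foxp4 and Bcl11a. A link between promoter sequence and capture was not tested.

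Reads counted to genes ranged from 22975667 to 31631137 in the 8 IP libraries, with 18408782 for the input and 20882691 for the unbound RNA. The captured RNA carried the markers of indirect-pathway neurons. All 6 indirect-pathway markers (such as Drd2, Adora2a and Penk) passed 2-fold over the reference library of their treatment in each of the IP libraries. Of the 7 direct-pathway markers (such as Drd1 and Tac1), 7 were at least 2-fold lower than in the input and 6 than in the unbound RNA. None of the 5 cholinergic markers met either call, and their summed level was 19.9 to 47.4 CPM (a gene's reads scaled to a common library total) in IP libraries, 58.3 CPM in the input and 42.3 CPM in the unbound RNA. Of the 8 oligodendrocyte markers, all 8 were lower than in the input and all 7 that passed the low-value filter were lower than in the unbound RNA, with a summed level of 208 to 444 CPM in IP libraries against 4150 and 4400 CPM. The 7 astrocyte markers were all lower in both comparisons, with sums of 55.7 to 203 CPM against 2010 and 1920 CPM. No marker of these 5 lists was at 0 reads in any IP library.

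The genes ran from among the well expressed to barely detected. Levels are given as CPM scaled by the trimmed mean of M-values (TMM) over all 10 libraries and, between genes, per kilobase of the union of exons. Over the 8 IP libraries Bcl11b had the highest level per length at 190 ± 25.2 CPM per kilobase (SD, n = 8), and Foxp1 followed at 175 ± 14.3. The ranges of this pair overlapped. Meis2 came next at 94.5 ± 9.43, then Six3 at 31.1 ± 2.79 and Sp9 at 17.0 ± 1.60, and from Foxp1 down to Sp9 no range touched the next. Zfp503 at 8.73 ± 0.72, Bcl11a at 8.63 ± 0.74 and Foxp2 at 6.61 ± 1.47 overlapped each other. Foxp4 stood at 1.25 ± 0.27 and Sp8 at 0.024 ± 0.019. With the longest transcript as the length, an alternative chosen after seeing the data, Foxp1 led at 336 ± 27.4 CPM per kilobase (SD, n = 8), and Bcl11a at 19.0 ± 1.62 lay level with Sp9 at 18.9 ± 1.79, so the order among Bcl11b, Foxp1 and Meis2 and around Sp9 depends on the gene model.

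**Figure D1:**
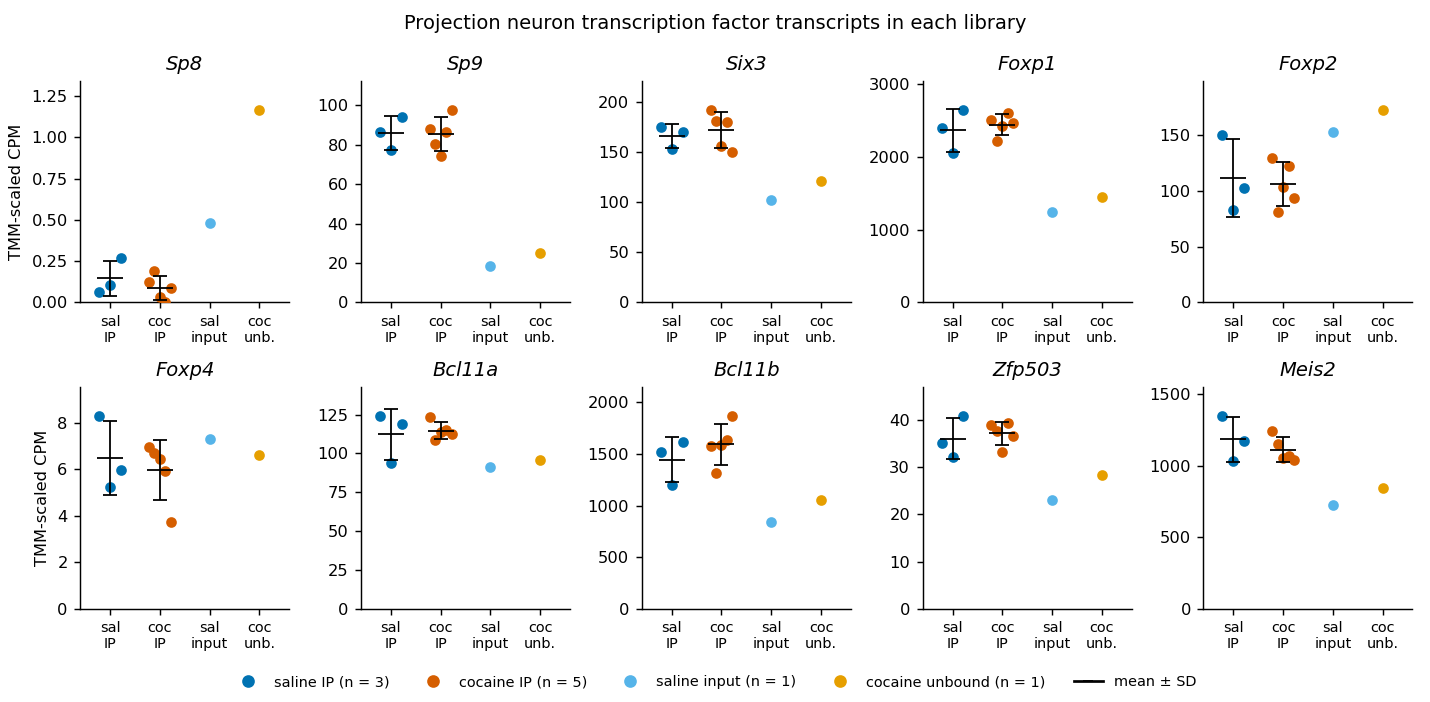
Level of each of the 10 genes in every library, as TMM-scaled CPM (y axis, linear, a separate scale per gene). Points are libraries, horizontal lines the mean and bars the SD of the 3 saline and 5 cocaine IP libraries. Every IP point of Sp9 lies at 74.1 or more against 18.3 in the input and 24.9 in the unbound RNA, whereas the Foxp2 points lie below both reference libraries and the saline and cocaine IP points overlap for all genes.

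Sp9, the zinc finger factor needed for indirect-pathway neurons, was the only one of the 10 genes called higher in the captured RNA, and it was so in both comparisons. Its reads in saline IP 1, 2 and 4 came to 2728, 2154 and 2463, and its levels to 86.5, 77.1 and 94.1 CPM, against 378 reads and 18.3 CPM in the input. In cocaine IP 1 to 5 it had 2824, 2134, 2243, 2141 and 2190 reads, or 88.1, 80.5, 74.1, 86.4 and 97.6 CPM, against 578 reads and 24.9 CPM in the unbound RNA. All 8 IP libraries lay far above both reference libraries, and the IP libraries differed among themselves by at most 1.32-fold. The mean log2 ratio, computed on CPM plus 1, was 2.19 ± 0.15 (SD, n = 3) against the input and 1.73 ± 0.15 (SD, n = 5) against the unbound RNA, or 4.57-fold and 3.33-fold. A gene was called when every IP library passed 2-fold in the same direction. With 1 reference library a comparison, this call has no p-value. Both reference libraries carry lane code 1, which no IP library has, so lane and RNA fraction cannot be told apart.

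Of the 10 genes, 9 passed the filter of a mean of at least 1 CPM and 1 was called higher in each comparison. Among all genes tested, 1.64% were called higher and 11.6% lower against the input (12902 genes), and 3.78% higher and 9.74% lower against the unbound RNA (12643 genes). The median mean ratio of the 10 genes was 0.68 against the input and 0.39 against the unbound RNA, and that of all genes tested was 0.125 and 0.169. By mean ratio Sp9 lay above 99.9% of genes against the input and above 99.3% against the unbound RNA. The Sp9 gene (chromosome 2, 73271925 to 73284706, plus strand, GRCm38) shares 270 exon bases, or 5.35% of its exon length, with Cir1 on the opposite strand. The strand setting of the counting is not given in the sources used here, but Cir1 itself had 126 to 223 reads in every library and ratios of 0.01 ± 0.21 (SD, n = 3) and -0.12 ± 0.16 (SD, n = 5).

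Six3, the homeobox gene downstream of Sp8 and Sp9, was also higher in every IP library, but by much less. Its levels were 174.8, 152.3 and 169.3 CPM in saline IP 1, 2 and 4 against 101.8 CPM in the input. In cocaine IP 1 to 5 they were 191.7, 181.1, 156.0, 179.2 and 149.8 CPM against 120.7 CPM in the unbound RNA. No IP library came down to a reference library, and none reached 2-fold over it, so Six3 was not called. The mean log2 ratios were 0.72 ± 0.12 (SD, n = 3) and 0.50 ± 0.16 (SD, n = 5), above 87.0% and 68.9% of genes. The Six3 gene (chromosome 17, 85613608 to 85629302, plus strand) shares 106 exon bases with Six3os1 and 168 with Gm28528 on the opposite strand. Six3os1, the noncoding transcript, had 271 to 443 reads in a library against 2104 to 6147 for Six3, with a log2 ratio of -0.07 ± 0.21 (SD, n = 3) to the input and of -0.12 ± 0.10 (SD, n = 5) to the unbound RNA. Gm28528 was not analysed here, since its symbol is not among those counted.

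The gap between Sp9 and Six3 can be read within each library, where no scaling enters. Per 100 Six3 reads, Sp9 had 49.5, 50.6 and 55.6 reads in saline IP 1, 2 and 4, and 45.9, 44.4, 47.5, 48.2 and 65.2 reads in cocaine IP 1 to 5. The input had 18.0 (95% exact interval 16.1 to 20.1, counting error only) and the unbound RNA 20.7 (18.9 to 22.6). The lowest IP value lay well above both reference values, and cocaine IP 5 stood above the other IP libraries, having the highest Sp9 and the lowest Six3 level of the 8. Sp9 thus made up a larger part of the pair in captured RNA in every library. Six3 did not exceed Foxp1 or Meis2, the shared factors set beside it here, in the same way. Per 100 Foxp1 reads it had 6.41 to 7.44 reads in saline IP and 6.07 to 8.17 in cocaine IP, below 8.19 in the input and 8.37 in the unbound RNA. Per 100 Meis2 reads Six3 had 14.1 ± 0.96 (SD, n = 3) and 15.5 ± 0.95 (SD, n = 5), with 14.1 in the input and 14.3 in the unbound RNA. The saline IP values lay on both sides of the input, and the cocaine IP values, 14.4 to 16.85, all above the unbound RNA. The mean log2 ratio of Six3 was above those of Zfp503, Bcl11a, Foxp2 and Foxp4 in both comparisons, narrowly so for Zfp503 (0.64 and 0.386).

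**Figure D2:**
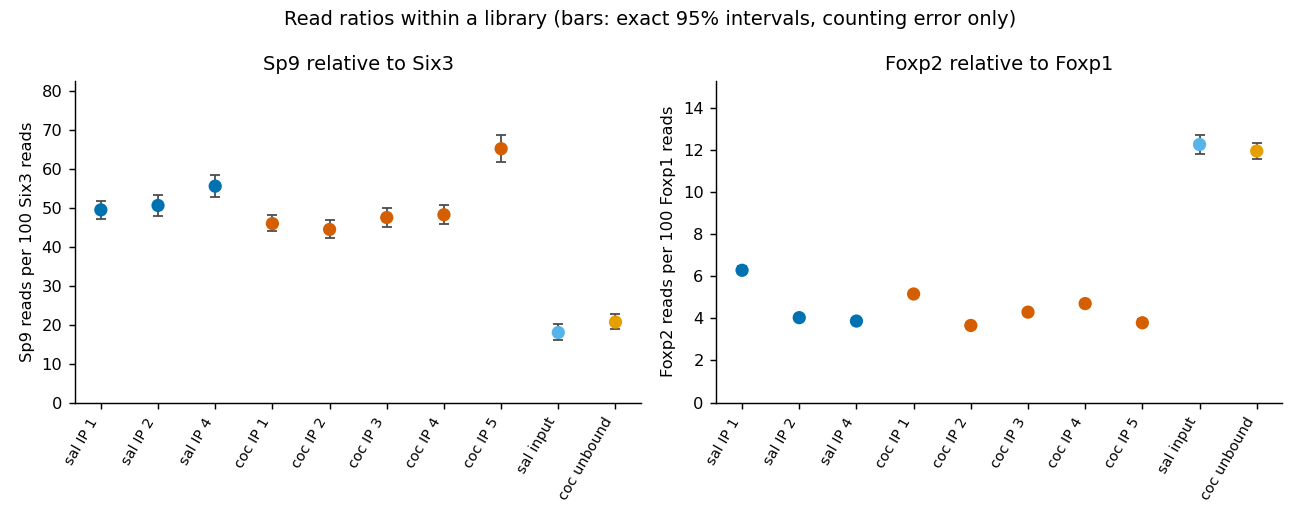
Reads of Sp9 per 100 Six3 reads (left y axis) and of Foxp2 per 100 Foxp1 reads (right y axis) in each library (x axis). Points are libraries and bars exact 95% intervals for counting error only. The IP libraries lie at 44.4 to 65.2 on the left against 18.0 and 20.7, and at 3.66 to 6.28 on the right against 12.3 and 11.9.

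Sp8, the close relative of Sp9 that in the adult forebrain is best known from migrating neuroblasts and olfactory bulb interneurons, was nearly absent from the captured RNA. It had 2, 3 and 7 reads in saline IP 1, 2 and 4 and 4, 5, 1, 0 and 2 reads in cocaine IP 1 to 5, against 10 reads in the input and 27 in the unbound RNA. Every IP library lay below the reference library of its treatment, and 5 of the 8 were at or under 3 reads, the floor used here (0.0936 to 0.134 CPM in IP libraries). Sp8 did not pass the filter on low values and was not called. Over the pooled reads its level in saline IP was 0.29 times that of the input (95% interval 0.115 to 0.748), and in cocaine IP 0.0757 times that of the unbound RNA (0.0349 to 0.155). These intervals cover counting error only. By level, the closely related Sp8 and Sp9 thus lay on opposite sides of their reference libraries. Against the input this rests for Sp8 on 12 pooled IP reads and 10 input reads. The edgeR fit of 4 groups described below did not call Sp8 in that comparison, at a fitted log2 difference of -1.67.

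The shared factors were mostly higher in captured RNA by less than 2-fold, and 0 of the 7 were called in either direction. Foxp1, the forkhead gene that marks most projection neurons, had levels of 2391, 2049 and 2641 CPM in saline IP 1, 2 and 4 against 1243 CPM in the input. In cocaine IP 1 to 5 it had 2499, 2217, 2414, 2605 and 2468 CPM against 1442 CPM in the unbound RNA. All 8 IP libraries were above both references, and the mean log2 ratios were 0.94 ± 0.20 (SD, n = 3) and 0.76 ± 0.09 (SD, n = 5). To leave out saline IP 2, the lowest of its group, the scaling was redone on the libraries left. Foxp1 then passed 2-fold over the input in both remaining IP libraries, with a mean of 1.10 ± 0.08 (SD, n = 2). Under the scaling with all 3 saline IP libraries, saline IP 1 lay just under 2-fold, at a log2 ratio of 0.984.

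Bcl11b, which specifies projection neurons and their patch organisation in the mouse, had 1522, 1203 and 1614 CPM in saline IP 1, 2 and 4 and 840.9 CPM in the input. Its cocaine IP levels were 1577, 1312, 1584, 1638 and 1868 CPM and its unbound level 1050 CPM. The log2 ratios came to 0.80 ± 0.24 (SD, n = 3) and 0.60 ± 0.18 (SD, n = 5), with every IP library above its reference. Meis2, a homeobox gene of the embryonic striatum, had 1346, 1029 and 1175 CPM in saline IP against 720.9 CPM in the input, and 1245, 1148, 1054, 1064 and 1040 CPM in cocaine IP against 844.7 CPM in the unbound RNA. Its log2 ratios were 0.73 ± 0.21 (SD, n = 3) and 0.40 ± 0.12 (SD, n = 5). For both genes saline IP 2 gave the lowest level of the saline group. Bcl11a (Ctip1), the paralogue of Bcl11b, had a log2 ratio of 0.31 ± 0.23 (SD, n = 3) to the input and of 0.27 ± 0.08 (SD, n = 5) to the unbound RNA, close to the medians of all genes, 0.125 and 0.169.

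The pair described as leaning to the direct pathway did not behave alike. Zfp503 had levels of 35.2, 32.2 and 40.9 CPM in saline IP against 23.1 CPM in the input, and 33.3 to 39.4 CPM in cocaine IP against 28.3 CPM in the unbound RNA, with log2 ratios of 0.64 ± 0.18 (SD, n = 3) and 0.39 ± 0.10 (SD, n = 5). Its 8 IP values all lay above both references, as those of Foxp1, Bcl11b and Meis2 did. Foxp2, a forkhead gene known for its part in vocal and motor learning, had 150.2, 82.6 and 102.2 CPM in saline IP 1, 2 and 4 against 152.4 CPM in the input. In cocaine IP 1 to 5 it had 128.8, 81.1, 103.6, 122.4 and 93.4 CPM against 172.2 CPM in the unbound RNA. No IP library exceeded its reference on this scale. The mean log2 ratios were -0.47 ± 0.45 (SD, n = 3) and -0.71 ± 0.28 (SD, n = 5), and against the input saline IP 1 alone was level at 0.02. Sp8, Foxp2 and Foxp4 were the members with negative means in both comparisons, and Foxp2 lay above 24.3% and 17.7% of genes.

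Set against Foxp1 within each library, Foxp2 was lower in captured RNA throughout. Per 100 Foxp1 reads it had 6.28, 4.03 and 3.87 reads in saline IP 1, 2 and 4 and 3.66 to 5.15 in cocaine IP, against 12.3 in the input and 11.9 in the unbound RNA. No IP library came near the reference values. This read ratio also moves with Foxp1, which was itself higher in captured RNA, at mean log2 ratios of 0.94 and 0.76. Among IP libraries Foxp2 was also the most variable of the members other than Sp8, with a coefficient of variation of 22.3%, followed by Foxp4 at 21.6%, while Foxp1, Zfp503, Bcl11a, Six3, Sp9 and Meis2 stood between 8.15% and 9.97%. Foxp2 was highest in the IP libraries numbered 1 of both treatments. This was not particular to Foxp2, since Six3, Foxp4, Bcl11a and Meis2 were also highest of each treatment in the libraries numbered 1. Those same libraries had the highest summed oligodendrocyte markers (444 and 409 CPM) and the lowest summed indirect-pathway markers (7870 and 6820 CPM, against 9730 to 12900 CPM in the others). The libraries numbered 2, which were lowest in Foxp2, had the lowest oligodendrocyte sums, 208 and 212 CPM. The summed direct-pathway markers, 111 to 176 CPM, were highest in cocaine IP 5, which was not among the libraries high in Foxp2. They were lowest of each treatment in saline IP 2 and cocaine IP 2, at 123 and 111 CPM. Foxp2 had a Pearson r of 0.258 with this sum over the 8 IP libraries (Spearman 0.443). Over the 8 IP libraries Bcl11a followed the summed astrocyte markers (Pearson r 0.947) more closely than Foxp2 did (0.746). Foxp1 (0.85), Bcl11b (0.828) and Sp9 (0.681) also rose with this sum. The r was lower for Foxp4 (0.188), and Sp8 alone among the members had a negative one (-0.0974). With the summed oligodendrocyte markers r was 0.859 for Bcl11a and 0.887 for Foxp2, and with the summed indirect-pathway markers -0.725 and -0.864. The part of any marker sum in the levels of Foxp2 or the other members was not tested.

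Foxp4, the least abundant of the forkhead genes here, lay near its references. It had 8.30, 5.26 and 5.96 CPM in saline IP against 7.30 CPM in the input, and 6.99, 6.71, 6.44, 5.93 and 3.74 CPM in cocaine IP 1 to 5 against 6.60 CPM in the unbound RNA. The IP values lay on both sides of the reference in each comparison. Its log2 ratios were -0.15 ± 0.31 (SD, n = 3) and -0.14 ± 0.31 (SD, n = 5). Without saline IP 2, and with the scaling redone on the libraries left, the first was 0.03.

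**Figure D3:**
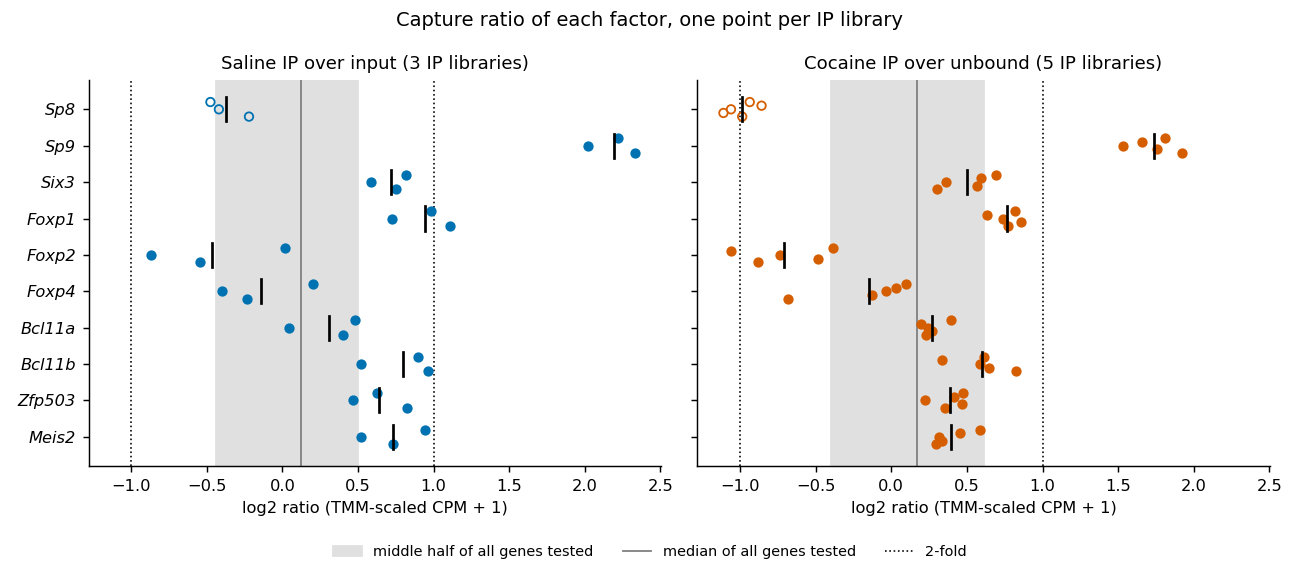
Log2 ratio of each IP library over its reference library (x axis, TMM-scaled CPM plus 1) for the 10 genes (y axis), for saline IP over input on the left and cocaine IP over unbound RNA on the right. Points are IP libraries (open for Sp8, which did not pass the low-value filter), bars their means, the grey band the interquartile range of all genes tested and dotted lines 2-fold. Sp9 alone lies beyond 2-fold in every library, and Six3 sits among Foxp1, Bcl11b, Zfp503 and Meis2.

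As sets, the indirect-pathway factors exceeded the shared factors by a margin that rested on Sp9 and was reduced by Sp8. Per library, the mean log2 ratio of Sp8, Sp9 and Six3 minus that of the 7 shared factors was 0.26, 0.59 and 0.49 in saline IP 1, 2 and 4, a mean of 0.45 ± 0.17 (SD, n = 3). In cocaine IP 1 to 5 it was 0.15, 0.32, 0.09, 0.13 and 0.28, a mean of 0.19 ± 0.10 (SD, n = 5). Every library was above 0, but the value depends on the amount added to the CPM of Sp8, which had almost no reads. With 0.1 CPM added in place of 1, the difference was 0.15 in saline and -0.41 in cocaine libraries, and without Sp8 it was 1.05 ± 0.12 (SD, n = 3) and 0.90 ± 0.10 (SD, n = 5). Without Foxp2 and Zfp503 among the shared factors it was 0.32 ± 0.15 (SD, n = 3) and 0.04 ± 0.09 (SD, n = 5). No p is given, since the sets were named with results known.

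A fit that lets the single reference libraries borrow the spread of the IP libraries gave a test for each gene. edgeR's quasi-likelihood test over all 4 groups, with the lone reference libraries assumed to vary like the others, called 6 of the 10 genes higher in saline IP than in the input. In that comparison 13.9% of the 16876 genes tested were called higher and 20.0% lower. Sp9 had a fitted log2 difference of 2.28 (edgeR adjusted p = 6.57e-05), Foxp1 0.97 (edgeR adjusted p = 0.00377) and Six3 0.75 (edgeR adjusted p = 0.0139). Meis2, Bcl11b and Zfp503 were also called, with fitted differences of 0.76, 0.83 and 0.69. Against the unbound RNA, where 17.6% of genes were called higher and 23.8% lower, 4 members were called higher and Sp8 lower. Sp9 had 1.77 (edgeR adjusted p = 0.000118), Foxp1 0.75 (edgeR adjusted p = 0.0075), Bcl11b 0.60 (edgeR adjusted p = 0.0431) and Six3 0.50 (edgeR adjusted p = 0.0476). For Sp8 the adjusted p was 0.014 by edgeR, and its fitted value of -3.67 depends on the prior count. Foxp2, at -0.71, did not pass (edgeR adjusted p = 0.0663), nor did it against the input, at -0.40 (edgeR adjusted p = 0.342). Because a ribosome-bound IP is set against total or unbound RNA of a whole tissue, fewer cells of a type in the reference and less RNA per cell cannot be told apart in any of these ratios.

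Other transcription factor genes of the striatum and its neighbours place these ratios. The direct-pathway factors Ebf1 and Isl1 were both called lower in both comparisons, at -3.48 ± 0.78 and -2.80 ± 0.31 (SD, n = 3) against the input and -3.54 ± 0.34 and -2.65 ± 0.43 (SD, n = 5) against the unbound RNA, far below Foxp2. Of 22 further genes with a role in striatal development or projection neurons, 21 passed the filter, with 1 called higher and 3 lower against the input and 2 higher and 4 lower against the unbound RNA. Rxrg, a retinoid receptor gene, was called higher in both (1.31 ± 0.23, SD, n = 3, and 1.62 ± 0.15, SD, n = 5). Ikzf1 and Dlx1, which act in striatal progenitors and young neurons, were called lower in both, Ikzf1 at -1.96 ± 0.17 (SD, n = 3) and -2.38 ± 0.43 (SD, n = 5), and Dlx1 at -1.62 ± 0.34 and -1.98 ± 0.46. Sp9 had a higher mean ratio than all 21 of these genes in both comparisons, and the medians of this list were 0.05 and -0.29. Against the unbound RNA the Sp9 values, 1.53 to 1.92, overlapped those of Rxrg (1.52 to 1.88) and Rarb (1.2 to 1.69).

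Factors of other cell types were mostly depleted. Of the interneuron factors 7 of 8 were called lower in each comparison, with Prox1 at -3.47 ± 0.95 (SD, n = 3) and Lhx6 at -3.20 ± 0.54 (SD, n = 3) against the input. Pallial factors were lower in 7 of 7 and 6 of 7, led by Neurod2 at -3.82 ± 0.41 (SD, n = 3). Oligodendrocyte factors were lower in 7 of 7 and 6 of 6, with Olig1 at -3.90 ± 0.52 (SD, n = 3), and astrocyte factors in 4 of 6 in each, with Sox9 at -3.32 ± 0.67 (SD, n = 3). Of the 10 factors of other non-neuronal cells 3 passed the filter and 2 were lower in each. Not called in either comparison were the interneuron factor Lhx8 (-1.56 ± 0.79, SD, n = 3, and -0.99 ± 0.70, SD, n = 5) and Irf8 (-0.11 and -0.04). The astrocyte factors Rfx4 (0.23 and -0.06) and Sox2 (-0.52 and -1.22) were not called either. The pallial factor Cux2 was not called against the unbound RNA (-1.29). None of the 7 shared projection neuron factors had a mean ratio below -0.71, so the lowest of them lay above the medians of every one of these lists.

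**Figure D4:**
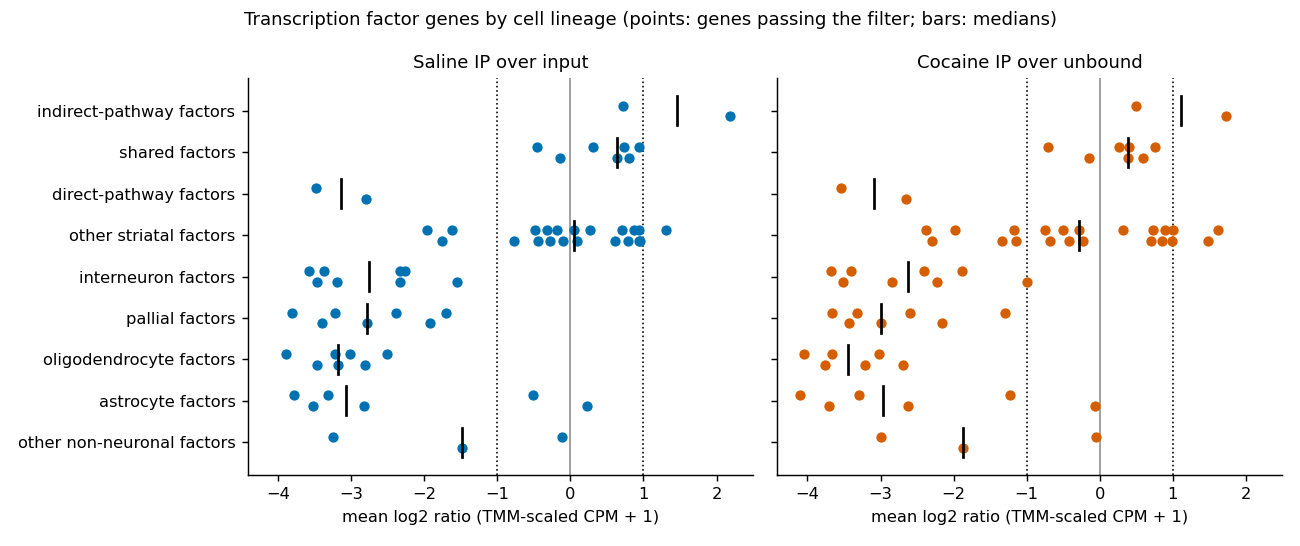
Mean log2 ratio (x axis, TMM-scaled CPM plus 1) of transcription factor genes grouped by the cell type they are known from (y axis), for saline IP over input on the left and cocaine IP over unbound RNA on the right. Points are genes that passed the low-value filter, bars the list medians, and dotted lines 2-fold. The shared factors span -0.47 to 0.94 and -0.71 to 0.76, while the medians of the direct-pathway, interneuron, pallial, oligodendrocyte and astrocyte lists lie between -3.44 and -2.63.

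After cocaine the genes showed no difference from saline that passed the test. edgeR's quasi-likelihood test on the 8 IP libraries called 0 of the 9 members tested, with an adjusted p of 0.9998 for each, and 0 members had an unadjusted p under 0.05. Among all 13800 genes tested 0 were called (0%), 295 (2.14%) had an unadjusted p under 0.05, and 327 (2.37%) had groups that did not overlap. DESeq2 also called 0, with 363 genes at an unadjusted p under 0.05. For all 9 members the saline and cocaine values overlapped. Sp9 stood at 85.9 ± 8.51 CPM (SD, n = 3) after saline and 85.3 ± 8.80 CPM (SD, n = 5) after cocaine, a log2 difference of 0.00 with a 95% interval of -0.26 to 0.27. Six3 stood at 165.5 ± 11.7 and 171.6 ± 17.8 CPM, a difference of 0.06 with an interval of -0.20 to 0.32. Six3 was higher after cocaine in all 3 pairs of libraries with the same number, by 0.14, 0.27 and 0.08 (log2). With the number as a block its difference was 0.16 (SE 0.08) and did not pass (edgeR adjusted p = 0.7724).

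The largest fitted difference was that of Bcl11b, 0.15 with an interval of -0.15 to 0.46, from 1446 ± 216 CPM (SD, n = 3) to 1596 ± 198 CPM (SD, n = 5). Foxp1 had 0.06, Zfp503 0.06, Bcl11a 0.04, Foxp2 -0.07, Meis2 -0.08 and Foxp4 -0.11. The intervals were widest for Foxp4 (-0.62 to 0.40) and Foxp2 (-0.52 to 0.38). Sp8 had too few reads to be tested. The lane codes in the sample descriptions were uneven: lane 7 held saline libraries, lane 4 cocaine libraries, and lane 6 saline IP 4 with cocaine IP 1 and 2. Within lane 6 the fitted differences ran from -0.15 (Foxp1) to 0.22 (Foxp4), and 8 of 9 had the opposite sign to the fit of all libraries, Six3 being the exception at 0.16. With a single saline library in lane 6 these are values that a test could hardly call. Among the cocaine libraries, lane 4 against lane 6 called 0 of 9 members and 0 of 13746 genes (0%, 744 at an unadjusted p under 0.05, edgeR), with member differences from -0.37 (Foxp4) to 0.21 (Bcl11b). Without cocaine IP 2 that lane comparison called 407 genes and 0 members.

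**Figure D5:**
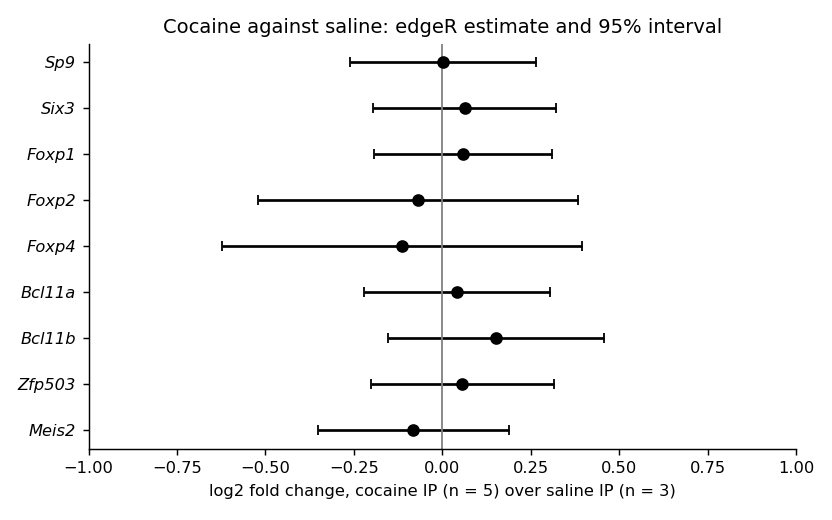
Log2 difference of cocaine IP (n = 5) over saline IP (n = 3) for the 9 genes tested (y axis), with the edgeR estimate as a point and its 95% interval as a bar (x axis). All 9 intervals include 0, from -0.62 to 0.40 for Foxp4 and from -0.26 to 0.27 for Sp9.

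The genes whose levels most resembled those of the members over the 8 IP libraries were taken by Pearson's r among the 9969 genes that average 5 CPM or more, as a description of libraries that also differ in depth and lane. For Sp9 they were Ppip5k2 (0.987), Nit2 (0.932) and the ribosomal protein gene Rps6 (0.965), whose processed copies make its counts uncertain, and for Six3 Gnas (0.952), Triqk (0.935) and Slc25a1 (0.935). For Foxp2 they were Ints3 (0.992), Lonrf2 (0.987) and Crybg3 (0.979). For Zfp503 the closest was Sox11 (0.959), an SRY-related factor of young neurons, the only other gene of the striatal list among the 27 named in this way. No member was among the closest genes of another.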

How the data were processed

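The deposited files hold raw read counts per gene symbol, 1 file per library, made by the authors with STAR 2.0.0e and HTSeq on mm10, per the submitters' processing notes. Neither the annotation nor the strand setting is given in the sources used here. Entries that name no gene stayed out of library sizes: reads in no feature made up 12.9% to 14.4% of an IP library, 25.5% of the input and 27.4% of the unbound RNA. No pair of libraries in a group matched within sampling noise (chi-square per degree of freedom of 21.5 or more). Groups and numbers come from the sample titles and descriptions.

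Levels are CPM with TMM scaling over the 10 libraries. IP ratios are log2(CPM + 1) differences with TMM within each comparison, for genes averaging 1 CPM or more. Cocaine was tested against saline with edgeR 4.0.16 in R 4.3.3 (quasi-likelihood, TMM, filterByExpr, two-sided, Benjamini-Hochberg over all genes), with DESeq2 1.42.0 as an alternative. Steps were tested on simulated data. Positions and lengths are from GENCODE on GRCm38, the mm10 assembly, where 142 of 143 symbols were found. The rule names all 10 members, the genes of each other factor list called in both IP comparisons with the largest mean ratios (up to 4), and the 3 genes most like each member. Not every gene that it names is reported here. The members and lists were chosen with earlier results of these data known.

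Numbers 1, 2 and 4 occur in both IP groups, without a label that explains them. Deviations from the group means of same-numbered libraries correlated at 0.709, 0.628 and 0.321 over 9618 genes averaging 5 CPM or more. The numbers were therefore taken as a likely pairing, though what the libraries share is not known. The main test has no block, and a fit with the number as a block is an alternative.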

Additional observations from a re-analysis of the deposited data

Results flagged for a closer look

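The Foxp4 ratio to the unbound RNA in cocaine IP 5 stood far from those of the other 4 cocaine IP libraries, at a log2 value of -0.684 against -0.13 to 0.0959. Its gap to the nearest library was 0.71 of the whole range. Chance sets apart about 1 in 20 groups in this way. Foxp4 had 84 reads in cocaine IP 5 and 147 to 224 in the other cocaine IP libraries. The same library had the lowest Six3 and the highest Sp9 and Bcl11b levels of the 8 IP libraries.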

How the results depend on the processing

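Sp9 was called higher in both IP comparisons under all alternatives tried, with log2 ratios of 1.76 to 2.33 against the input and 1.55 to 2.16 against the unbound RNA. The cause of the changes below was not tested. Members called against the input numbered 1 to 2 with 1 IP library left out, the 2 without saline IP 2 being Sp9 and Foxp1, and 6 in the edgeR fit of 4 groups. Against the unbound RNA that fit called 5 in place of 1. The indirect minus shared difference, 0.45 in saline and 0.19 in cocaine libraries, was 0.15 and -0.409 with 0.1 CPM added, 0.376 in cocaine with 5 CPM added, 1.05 and 0.896 at a mean of at least 5 CPM or without Sp8, 0.206 and 0.434 with the other reference library, and 0.0395 in cocaine without Foxp2 and Zfp503. With library size alone the median of all genes was -0.0945 against the input and -0.0114 against the unbound RNA, in place of 0.125 and 0.169. The genes called higher were then 70 in place of 211 and 247 in place of 478, and those called lower 1823 in place of 1495 and 1477 in place of 1231.

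For cocaine against saline no member was called. Of 17 alternatives, the sign turned in 12 for Sp9, 8 for Foxp4, 6 for Foxp2, 4 each for Bcl11a and Meis2, 3 each for Foxp1 and Zfp503, and 2 each for Bcl11b and Six3. Six3 was 0.165 with lane as a covariate, 0.157 in lane 6 alone, 0.184 without lane 4 and 0.162 with the replicate block. The values that turned sign follow. With lane as a covariate they were -0.132 (Sp9), -0.137 (Foxp1), 0.0705 (Foxp2), 0.227 (Foxp4), -0.00634 (Bcl11a), -0.132 (Bcl11b), -0.0642 (Zfp503) and 0.0524 (Meis2). In lane 6 alone they were -0.14 (Sp9), -0.145 (Foxp1), 0.0603 (Foxp2), 0.22 (Foxp4), -0.0147 (Bcl11a), -0.141 (Bcl11b), -0.0721 (Zfp503) and 0.0443 (Meis2). Without lane 4 they were -0.0143 (Sp9), 0.0826 (Foxp4) and 0.0267 (Meis2). Without the number 1 libraries, a choice made after seeing the data, they were -0.018 (Sp9), 0.115 (Foxp2) and 0.0289 (Foxp4). Sp9 was -0.00699 with library size alone, -0.00821 without the low-count filter and -0.00485 by DESeq2. With the replicate block of numbers 1, 2 and 4, Sp9 was -0.00413, Foxp2 0.00983 and Foxp4 0.0312, and in the same 6 libraries with no block Sp9 was -0.00815, Foxp4 0.0119 and Six3 0.159. The block changed no call, with 0 of 13580 genes passing (903 at an unadjusted p under 0.05, against 141 with no block). With 1 library left out the differences ran from -0.0786 to 0.0589 (Sp9), -0.00344 to 0.102 (Six3), -0.0413 to 0.134 (Foxp1), -0.252 to 0.205 (Foxp2), -0.254 to 0.101 (Foxp4), -0.0799 to 0.117 (Bcl11a), -0.0262 to 0.143 (Zfp503) and -0.181 to 0.0181 (Meis2). The Foxp4 ratio to the input ran from -0.318 to 0.0332, and lane 4 over lane 6 from -0.0917 to 0.106 (Sp9), -0.0381 to 0.168 (Foxp1), -0.31 to 0.39 (Foxp2) and -0.155 to 0.0634 (Bcl11a).

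Each IP comparison has a single reference library, and input is total RNA while unbound RNA is what the capture left, so the ratios after saline and after cocaine are not on one scale. Depth limits Sp8, whose 0 to 7 reads in an IP library allow no comparison of cocaine with saline.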
